A study of Mus musculus with 8 samples.

Results

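The genes described here are 10 that carry lipid into cells, store it and pass it on, out of 20340 genes in the count tables: Lpl, Cd36, Fabp5, Plin2, Soat1, Apoe, Abca1, Abcg1, Ch25h and Gpnmb. They were taken by name, and all 10 were present in every library. The mice were C57BL/6J males, 8-9 weeks old, in which a suture closed the middle cerebral artery for 60 min before blood flow was restored, a model of stroke with reperfusion, and live brain cells were sequenced singly. The 8 libraries covered each combination of labelled genotype (WT, also written Prdx1+/+, or Prdx1-/-, which lacks the peroxidase peroxiredoxin 1), side of the occlusion (ipsilateral or contralateral hemisphere) and hours of reperfusion (24 or 48), so each combination is a single 10x 3′ library (n = 1). Every animal had the occlusion, so the contralateral hemisphere of the same surgery is the only reference side, and no sham or naive group was analysed here. The number of animals in a library is not stated, so p-values here reflect how much libraries vary, part of which can be technical, and not how much animals vary. The sort kept live cells with no lineage gate, and cells were separated from myelin on Percoll before it.

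Lipoprotein lipase (Lpl) cuts triglyceride into fatty acids, which enter cells through the scavenger receptor Cd36 and are carried in the cytosol by fatty acid binding proteins such as Fabp5. Surplus lipid is kept in droplets, coated by perilipin 2 (Plin2), with cholesterol esterified for storage by Soat1. Cholesterol leaves phagocytes through the transporters Abca1 and Abcg1 onto acceptors such as apolipoprotein E (Apoe), and Ch25h makes 25-hydroxycholesterol, an oxysterol released by activated macrophages. Gpnmb is a membrane glycoprotein of the endolysosomal system. After stroke, microglia and invading macrophages take up myelin and dead cells, which brings a load of cholesterol and fatty acids.

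On GRCm38 (GENCODE vM21) Lpl lies at chr8:68880491-68907448 (plus strand), Cd36 at chr5:17781690-17888801 (minus), Fabp5 at chr3:10012548-10016607 (plus), Plin2 at chr4:86648386-86670060 (minus), Soat1 at chr1:156424525-156474331 (minus), Apoe at chr7:19696109-19699188 (minus), Abca1 at chr4:53030787-53159895 (minus), Abcg1 at chr17:31057675-31117988 (plus), Ch25h at chr19:34473778-34475164 (minus) and Gpnmb at chr6:49036546-49070929 (plus). Counts are given per gene, so no isoform is resolved. Fabp5 has a processed pseudogene, Fabp5l2, so reads of Fabp5 are less certainly its own. The antisense gene Gm26902 overlaps Ch25h and is also in the tables. Reads of Ch25h are less certain too, since the strand setting of the counting is not given in the sources used here.

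RefSeq promoter windows of 270 bases, from 250 before the start to 20 after it on GRCm38.p6, were at hand for 7 of the 10 members, and Lpl, Fabp5 and Abcg1 had none. The windows of Abca1 (chr4:53159876-53160145, minus strand), Ch25h (chr19:34475129-34475398, minus), Plin2 (chr4:86670040-86670309, minus) and Gpnmb (chr6:49036268-49036537, plus) are printed. These 4 genes, an exporter, an oxysterol enzyme, a droplet coat and a lysosomal glycoprotein, were each called in at least 1 comparison below. Their windows also held a match to a motif searched. The windows of Cd36, Soat1 and Apoe, which were also called below, held none of the 4 motifs searched and are not printed. The printed windows run 5′ to 3′ on the gene's own strand, with 1 motif match of each in capitals.
Abca1: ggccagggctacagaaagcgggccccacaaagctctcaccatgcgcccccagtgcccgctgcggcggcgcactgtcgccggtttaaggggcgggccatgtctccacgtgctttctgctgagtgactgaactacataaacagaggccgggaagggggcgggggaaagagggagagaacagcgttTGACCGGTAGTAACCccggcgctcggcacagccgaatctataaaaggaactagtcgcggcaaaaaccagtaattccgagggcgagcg
Ch25h: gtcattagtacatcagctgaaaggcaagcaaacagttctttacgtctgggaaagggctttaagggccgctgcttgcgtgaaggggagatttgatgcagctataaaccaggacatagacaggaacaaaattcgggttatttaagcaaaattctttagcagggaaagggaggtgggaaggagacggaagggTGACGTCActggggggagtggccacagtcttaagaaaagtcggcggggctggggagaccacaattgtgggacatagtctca
Plin2: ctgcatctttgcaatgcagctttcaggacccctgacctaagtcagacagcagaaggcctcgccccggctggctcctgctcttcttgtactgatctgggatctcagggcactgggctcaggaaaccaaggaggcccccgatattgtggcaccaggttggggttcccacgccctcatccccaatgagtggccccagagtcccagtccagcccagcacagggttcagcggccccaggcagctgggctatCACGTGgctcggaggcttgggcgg
Gpnmb: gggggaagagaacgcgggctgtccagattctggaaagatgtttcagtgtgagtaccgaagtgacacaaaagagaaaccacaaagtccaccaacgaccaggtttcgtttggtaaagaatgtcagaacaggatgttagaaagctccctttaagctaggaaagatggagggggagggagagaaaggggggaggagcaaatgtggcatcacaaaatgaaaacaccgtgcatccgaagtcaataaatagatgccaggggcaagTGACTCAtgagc
The capitals in Abca1 are a direct repeat of the kind that liver X receptors, the sterol sensors, are known to bind (searched on both strands as GGTNA and GGTCA with any 5 bases between them, and found on the minus strand from -67 to -53 relative to the start). Those in Ch25h are a cyclic AMP response element (TGACGTCA, -61 to -54), those in Plin2 an E-box (CACGTG, -4 to 2) and those in Gpnmb an AP-1 element (TGANTCA, 9 to 15). The Abca1 window also held an E-box, from -147 to -142, which does not overlap the repeat. Of 32851 promoter windows of that length, 63 (0.192%) held the repeat, 567 (1.73%) the cyclic AMP element, 2158 (6.57%) the E-box and 2375 (7.23%) the AP-1 element. The motifs were chosen after the sequences were read, and a match describes letters, not binding.

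The deposited tables held 39945 cells, with 39433266 to 70111421 UMIs and a median of 7201 to 13139 UMIs per cell in each library. After filters 38025 cells remained in 31 clusters, made without Prdx1 and without any of the lipid genes described here. Of these, 19358 were microglia-like, with 14628 in the contralateral and 4730 in the ipsilateral libraries. All 12 microglia markers were counted in that class, at a sum of 16710 to 25161 CPM contralaterally and 10288 to 15734 CPM ipsilaterally. Pairs of libraries shared 3 to 17 cell barcodes, and no cell was identical between libraries. Prdx1 went against the labels at 24 h: in microglia-like cells it stood at 258 and 246 CPM in the WT libraries (contralateral, ipsilateral) but still at 88.4 and 146 CPM in the libraries labelled Prdx1-/-. At 48 h it stood at 335.5 and 418 CPM in the WT libraries and at 6.01 and 5.56 CPM in those labelled Prdx1-/-. Genotype is therefore written as labelled, and the contrast at 48 h is given beside the one over all libraries.

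In microglia-like cells, 5 of the 10 members differed between hemispheres in an edgeR quasi-likelihood fit over all 8 libraries: Cd36, Fabp5, Plin2 and Ch25h were higher on the ipsilateral side and Abcg1 was lower. Of all 13183 genes tested in that comparison, 43.3% were called, so 5 of 10 is close to the background. The hemispheres did not overlap for 32.1% of these genes, and for Cd36, Plin2, Ch25h and Abcg1 among the members. The members' median log2 fold change was 0.88, beside -0.0045 over all genes. Levels are in CPM, the gene's share of all UMIs summed over the class in a library, and 4 values in a row give 24 h before 48 h and, at each time, WT before Prdx1-/-.

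Among the uptake genes, Lpl stood at 104.5, 154, 186 and 171 CPM in the contralateral libraries and 445, 441, 146 and 278 CPM in the ipsilateral ones. The 2 ipsilateral 24 h libraries were the highest, while the WT 48 h library was below its contralateral partner, and the groups overlapped. The log2 difference was 1.14 (SE 0.46, edgeR adjusted p = 0.117), higher in 3 of 4 pairs of hemispheres, and did not pass the test. Cd36 was scarce, at 0.535, 0.950, 2.83 and 2.11 CPM in the contralateral libraries and 7.49, 5.34, 7.21 and 7.64 CPM in the ipsilateral ones, which rest on 17 to 174 UMIs. All ipsilateral libraries were above all contralateral ones, with a log2 difference of 2.42 (SE 0.36, edgeR adjusted p = 0.00139). Fabp5 stood at 11.5, 25.9, 15.04 and 28.4 CPM in the contralateral libraries and 23.6, 62.9, 69.4 and 75.6 CPM in the ipsilateral ones. It was higher in 4 of 4 pairs, by 1.64 (SE 0.27, edgeR adjusted p = 0.00641), although the WT ipsilateral 24 h library overlapped the contralateral range. This call held in all 18 alternatives run. Cd36 had a value in 17 of them and lost its call with the WT libraries alone (2.59, edgeR adjusted p = 0.128).

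Of the storage genes, the droplet coat Plin2 stood at 122, 95.3, 117 and 152 CPM in the contralateral libraries and 215, 184, 219 and 295 CPM in the ipsilateral ones. The 4 ipsilateral libraries were all above the 4 contralateral ones, at a log2 difference of 1.04 (SE 0.11, edgeR adjusted p = 0.000108). Soat1, the cholesterol esterifying enzyme, stood at 87.6, 70.7, 73.3 and 82.8 CPM in the contralateral libraries and 66.7, 65.6, 69.6 and 79.2 CPM in the ipsilateral ones, ranges that overlapped. Its difference was -0.03 (95% interval -0.19 to 0.13) on the log2 scale.

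Of the sterol genes, Ch25h had the largest difference of the 10, at 3.65, 2.18, 7.56 and 5.30 CPM in the contralateral libraries and 50.3, 28.8, 40.3 and 34.0 CPM in the ipsilateral ones. No contralateral library reached the lowest ipsilateral one, and the log2 difference was 3.28 (SE 0.29, edgeR adjusted p = 0.000528). The exporter Abcg1 moved the other way, at 138, 115, 112 and 117 CPM in the contralateral libraries and 94.8, 70.6, 61.4 and 83.5 CPM in the ipsilateral ones. All 4 ipsilateral libraries were below the contralateral range, with a log2 difference of -0.50 (SE 0.10, edgeR adjusted p = 0.0036). Its relative Abca1 stood at 241.5, 213, 227.5 and 240.3 CPM in the contralateral libraries and 242, 206, 187 and 221 CPM in the ipsilateral ones, with a difference of 0.03 (95% interval -0.16 to 0.21). Apoe stood at 1884, 2275, 1828 and 4131 CPM in the contralateral libraries and 1362, 1651, 1692 and 2583 CPM in the ipsilateral ones. It was lower ipsilaterally in 4 of 4 pairs, but the difference of -0.31 (SE 0.12, edgeR adjusted p = 0.0684) did not pass the test, and the libraries labelled Prdx1-/- at 48 h were the highest on each side. With the pair of hemispheres of each genotype label and time as a block it passed, at -0.295 (SE 0.0978, edgeR adjusted p = 0.0347). Gpnmb was scarce, at 2.23, 0.650, 1.63 and 6.97 CPM in the contralateral libraries and 1.72, 0.456, 6.36 and 13.9 CPM in the ipsilateral ones, on 10 to 188 UMIs, with a difference of 0.72 (SE 0.81, edgeR adjusted p = 0.517).

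**Figure D1:**
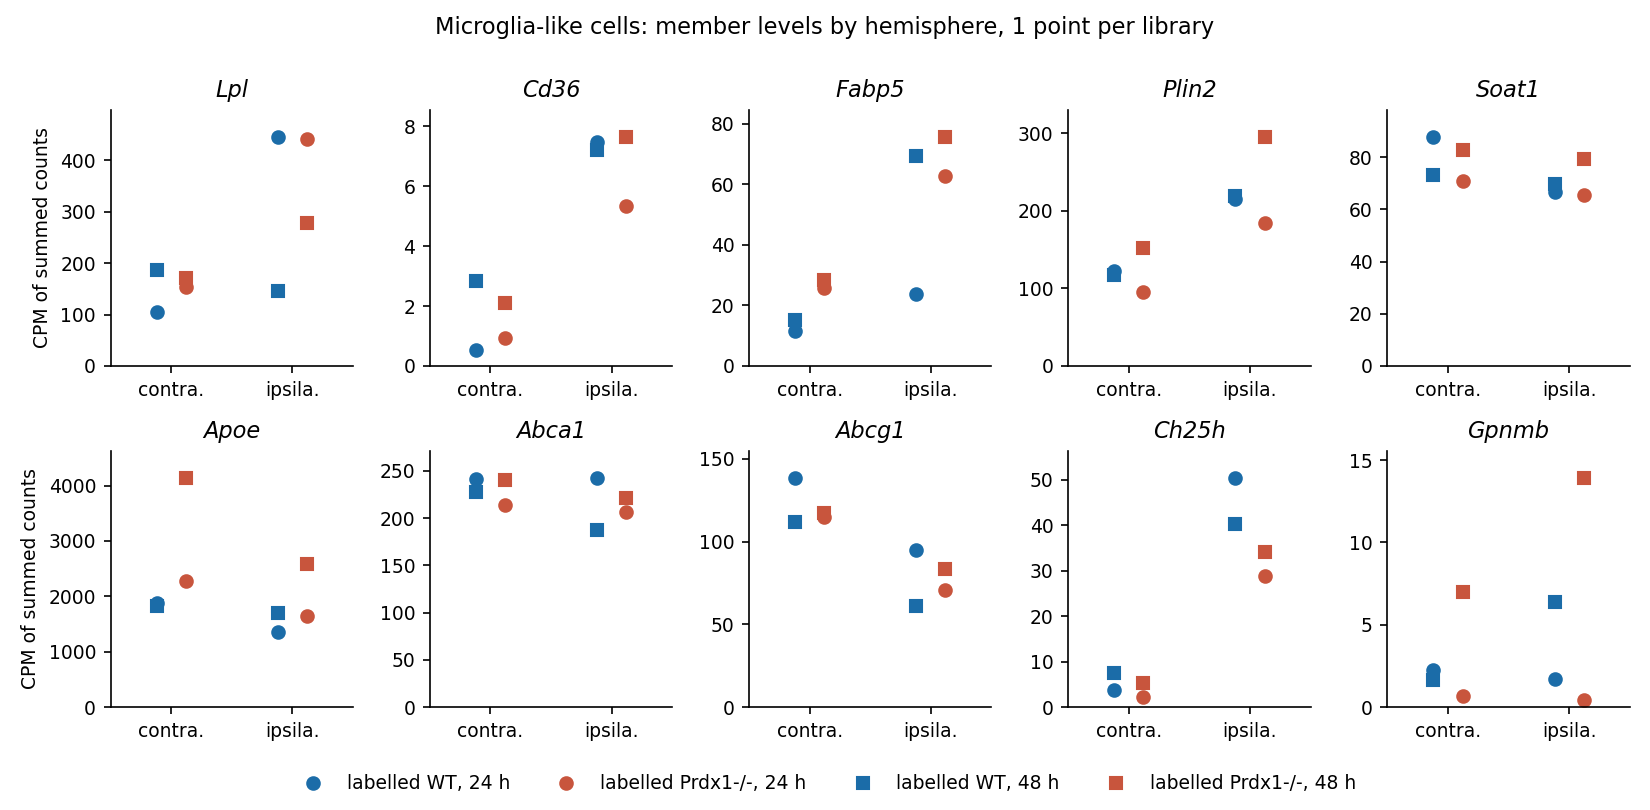
Level of each member in microglia-like cells, in CPM of summed counts, by hemisphere; each point is 1 library, coloured by labelled genotype, circles for 24 h and squares for 48 h. Plin2, Cd36 and Ch25h are higher in every ipsilateral library than in any contralateral one, Abcg1 is lower, and Abca1 and Soat1 overlap. Of all genes tested, 32.1% did not overlap between hemispheres.

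Markers of other cells moved with the hemisphere in the same class. The 13 monocyte and macrophage markers summed to 236 to 677 CPM contralaterally and 721 to 1241 CPM ipsilaterally, with all 13 counted on each side. The 12 neutrophil markers summed to 26.5 to 240 CPM and 290 to 1415 CPM, again all counted, and the 10 border macrophage markers to 219 to 316 CPM and 180 to 223 CPM, with Cd209f at 0. Their part in the result was not tested. T and NK-like cells, which should lack most members, had no Ch25h UMI in 849 cells, which at this depth allows up to 0.353% of cells with a UMI of it and sets no limit on how many express it. With every cell thinned to 5000 UMIs, 0.496% to 1.42% of contralateral and 4.98% to 7.43% of ipsilateral microglia-like cells had a Ch25h UMI (0.852% to 2.35% and 8.43% to 10.5% before thinning). For Plin2 the thinned shares were 27.7% to 36.2% and 40.1% to 48.4% in microglia-like cells, beside 13.9% to 20.0% and 11.8% to 27.2% in T and NK-like cells. Thinning left out 1659 contralateral and 259 ipsilateral microglia-like cells, and the median depth was 7994 UMIs in microglia-like and 5805 UMIs in T and NK-like cells.

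The microglia-like class was not made of the same clusters on the 2 sides. Contralaterally it was mainly cluster 0 (led by P2ry12, Crybb1 and Siglech, 24.8%), cluster 3 (Hspa1b, P2ry12, 20.5%), cluster 4 (Ltc4s, P2ry13, 18.0%) and cluster 2 (Ccl12, Tnf, 17.0%). Ipsilaterally it was mainly cluster 8 (Tnf, Il1a and Ccl12, 34.2% beside 2.84%), cluster 5 (Klf2, Fosb and Egr1, 21.7%) and cluster 2 (20.5%), with cluster 0 at 3.74%. Member levels ranged widely between clusters. Plin2 ranged over 54.4 to 75.4 CPM in contralateral cluster 0 and 137 to 231 CPM in contralateral cluster 8. In ipsilateral cluster 8 it was 207 to 307 CPM, which overlapped the contralateral range of that cluster. In cluster 2 Plin2 also overlapped between sides, at 135 to 232 CPM and 125 to 276 CPM. Ch25h was at most 5.06 CPM in clusters 0, 3, 4 and 5 on either side. In cluster 8 it reached 9.03 to 56.2 CPM contralaterally and 35.5 to 102 CPM ipsilaterally, with overlap. Cd36 in cluster 8 was 2.04 to 4.44 CPM and 4.603 to 12.2 CPM, without overlap. In cluster 2 it overlapped between sides (1.03 to 2.57 CPM and 0 to 5.57 CPM). It also overlapped in clusters 3, 4 and 5, at no more than 1.314 CPM. Abcg1 was lower ipsilaterally without overlap in cluster 3 (123 to 139 CPM and 82.3 to 101 CPM). It overlapped in cluster 8 (79.6 to 95.7 CPM and 60.1 to 90.8 CPM) and cluster 2 (88.6 to 119 CPM and 55.6 to 99.6 CPM). Overlap was also seen in cluster 4 (99.3 to 152 CPM and 79.8 to 120 CPM) and cluster 5 (95.9 to 119.5 CPM and 64.0 to 102 CPM). Fabp5 overlapped in cluster 8 (34.7 to 95.6 CPM and 27.8 to 88.5 CPM), cluster 2 (25.16 to 65.65 CPM and 13.56 to 39.41 CPM) and cluster 5. In cluster 3 it was higher ipsilaterally without overlap (3.98 to 10.39 CPM and 10.88 to 52.35 CPM in 3 ipsilateral libraries). The same held in cluster 4 (9.54 to 13.66 CPM and 16.99 to 27.68 CPM in 2 ipsilateral libraries). The share of all genes without overlap between sides within single clusters was not computed.

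The choice of cells thus bears on these results. With only the clusters led by a microglia marker, fitted without the Prdx1-/- ipsilateral 48 h library because it held 14 such cells, Plin2 differed by 0.25 (edgeR adjusted p = 0.853), Ch25h by 1.11 (0.688) and Abcg1 by -0.51 (0.0659), while Fabp5 kept its call at 1.60 (edgeR adjusted p = 0.00203). With cells classed by marker score one by one, Plin2 differed by 2.29, Lpl by 1.99, Gpnmb by 1.55 and Apoe by -0.53, all called, and Soat1 by 0.24, which was also called (edgeR adjusted p = 0.0339). That score takes in cells of cluster 9, which the rule for names left unnamed.

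Cluster 9, led by Mmp12, Lpl and Spp1, was an ipsilateral population of 1682 cells beside 64 contralateral ones and held the highest Plin2 of any class compared. The ipsilateral libraries held 1128, 385, 110 and 59 of its cells, and 64.6% of the whole cluster came from the WT ipsilateral 24 h library. Its microglia markers, all 12 counted, summed to 4073 to 4861 CPM ipsilaterally. Ipsilateral Plin2 was 1879, 1987, 2795 and 2572 CPM, Lpl 2460, 2269, 866 and 1807 CPM and Abca1 416, 323, 411 and 474 CPM. For Plin2 and Abca1 this range did not overlap that of the next class. For Lpl it overlapped the next class, erythrocyte-like cells (6.99 to 880 CPM in 3 libraries), but not microglia-like cells as a class (146 to 445 CPM). Within that class, cluster 18 held 967 to 1352 CPM of Lpl in 2 ipsilateral libraries. Of the thinned cells of cluster 9 at least 97.6% in each ipsilateral library had a Plin2 UMI, beside 78.6% of 28 cells in the 1 contralateral library with enough of them. Cd36 (29.9, 35.2, 17.7 and 30.6 CPM) and Ch25h (31.9, 15.8, 47.2 and 17.8 CPM) were present, whereas Apoe, at 525, 875, 1869 and 1093 CPM, ranked sixth of the classes compared and overlapped microglia-like cells. These levels describe a cluster found in the same cells, and no test was made of them.

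**Figure D2:**
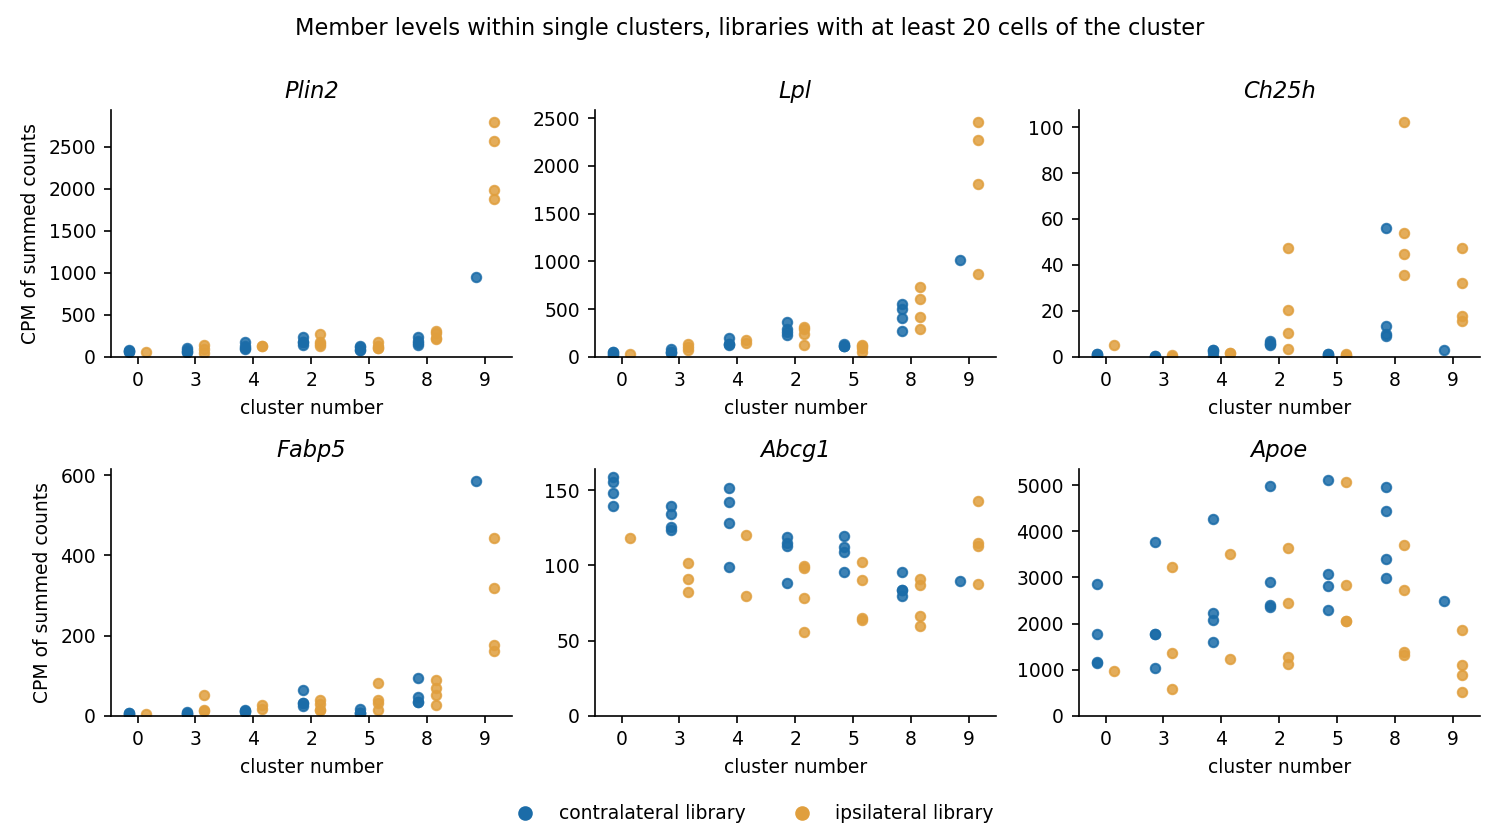
Level of 6 members in CPM within single clusters (microglia-like clusters 0, 3, 4, 2, 5 and 8, and the unnamed cluster 9), 1 point per library with at least 20 cells of the cluster, blue for contralateral and orange for ipsilateral. Plin2 and Lpl are highest in cluster 9, Ch25h is low in clusters 0, 3, 4 and 5, and Apoe spreads widely within each cluster.

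Monocyte/macrophage-like cells, 492 contralateral and 2263 ipsilateral, showed 3 of 9 tested members past the threshold (Ch25h was too low to test), where 5.41% of 9944 genes were called. The members' median was -0.16, beside -0.01 over all genes. Abca1 stood at 30.8, 35.1, 91.5 and 77.8 CPM in the contralateral libraries and 87.9, 67.8, 143 and 106 CPM in the ipsilateral ones. It was higher ipsilaterally in 4 of 4 pairs by 0.83 (SE 0.17, edgeR adjusted p = 0.0161), and the groups overlapped. Abcg1 went the other way, at 54.6, 47.3, 60.6 and 68.6 CPM in the contralateral libraries and 22.7, 22.6, 50.7 and 41.8 CPM in the ipsilateral ones, lower in 4 of 4 pairs with a log2 difference of -0.66 (SE 0.14, edgeR adjusted p = 0.0159), again with overlap. Lpl stood at 58.8, 125, 35.2 and 42.6 CPM in the contralateral libraries and 28.5, 43.9, 19.1 and 28.9 CPM in the ipsilateral ones and was lower in 4 of 4 pairs, at -0.91 (SE 0.15, edgeR adjusted p = 0.00546). The 2 cholesterol exporters therefore had opposite signs in this class. Its makeup differed between sides: cluster 16, led by interferon response genes, was 31.7% of the contralateral and 17.9% of the ipsilateral cells, and cluster 7 the rest. Within cluster 7 Abcg1 was 36.1 to 57.1 CPM contralaterally and 17.2 to 32.2 CPM ipsilaterally and Abca1 28.7 to 58.9 CPM and 62.04 to 118 CPM, both without overlap. Lpl overlapped there (42.7 to 141.5 CPM and 25.8 to 44.3 CPM). The share of all genes without overlap between sides within cluster 7 was not computed. Cluster 16 held 89.8 to 123 CPM of Abcg1. The part of the makeup in the results of the class was not tested. The microglia markers, all 12 counted, summed to 646 to 2144 CPM contralaterally and 203 to 333 CPM ipsilaterally in these cells, and so moved with both decreases. Contralateral microglia-like cells held 112 to 138 CPM of Abcg1, above the 47.3 to 68.6 CPM of contralateral monocyte/macrophage-like cells, and 104.5 to 186 CPM of Lpl, which overlapped their 35.2 to 125 CPM. The markers' part in the result was not tested. Over 17 alternatives Lpl lost its call in 3, Abca1 in 3 and Abcg1 in 5. By marker score none of them was called, in a class that then took in 3669 cells of cluster 1 and 1228 of cluster 12. Abca1 lost its call without either library labelled Prdx1-/- at 24 h (edgeR adjusted p = 0.0681 contralateral, 0.0529 ipsilateral). Abcg1 lost it without the WT (0.0502) or Prdx1-/- (0.0561) ipsilateral 24 h library or the Prdx1-/- contralateral 48 h library (edgeR adjusted p = 0.0985).

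Cluster 1, led by Arg1, Pf4, Ccl24 and Ms4a7, held 428 contralateral and 3292 ipsilateral cells and stayed unnamed because its leading genes included more border macrophage than monocyte markers; its tests were added after the data were seen. Between hemispheres 1 of 9 members was called, where 2.89% of 9469 genes were, and the median over the members was 0.29, beside -0.01 over all genes. Abcg1 was lower, at 39.4, 36.0, 91.7 and 90.6 CPM in the contralateral libraries and 29.1, 15.9, 62.4 and 48.8 CPM in the ipsilateral ones, in 4 of 4 pairs, with a log2 difference of -0.73 (SE 0.14, edgeR adjusted p = 0.0187). The call was lost without the Prdx1-/- libraries of the ipsilateral 24 h (edgeR adjusted p = 0.0642), contralateral 48 h (0.0907) or ipsilateral 48 h (0.102) group. With the pair of hemispheres as a block Lpl was lower too, at -1.76 (SE 0.25, edgeR adjusted p = 0.0231). Here too the microglia markers were higher contralaterally, at 887 to 1347 CPM beside 215 to 597 CPM, all 12 counted, and their part in the result was not tested. Lower ipsilateral Abcg1 was thus called in microglia-like cells, monocyte/macrophage-like cells and cluster 1, and whether its size differed between them was not tested.

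In neutrophil-like cells, 48 to 297 per contralateral and 956 to 1838 per ipsilateral library, 2 of 7 tested members were higher, where 3.84% of 8798 genes were called, and the members' median was 0.64 beside -0.01. Plin2 stood at 363, 401, 389.6 and 363 CPM in the contralateral libraries and 894, 903.5, 973 and 561.5 CPM in the ipsilateral ones, a log2 difference of 1.29 (SE 0.23, edgeR adjusted p = 0.0116). Abca1 stood at 18.6, 76.4, 37.2 and 64.2 CPM in the contralateral libraries and 143, 116, 178 and 96.6 CPM in the ipsilateral ones, a difference of 1.73 (SE 0.37, edgeR adjusted p = 0.0314). For both genes the ipsilateral libraries lay above all contralateral ones, where 10.8% of all genes tested did not overlap between hemispheres. The class was made of clusters 6, 10, 11 and 17 at 33.3%, 4.38%, 47.4% and 14.9% contralaterally and 43.7%, 30.4%, 20.9% and 5.02% ipsilaterally. Clusters 6 and 10 held more of both genes ipsilaterally (Plin2 887.5 to 1141 CPM and 941 to 1104 CPM) than cluster 11 (249 to 531 CPM). Within cluster 11 both genes overlapped between sides, with contralateral Plin2 at 325 to 455 CPM and Abca1 at 7.38 to 45.1 CPM beside 17.3 to 59.75 CPM. In cluster 6 Abca1 overlapped too (132 to 158 CPM in 2 contralateral and 87.95 to 194.5 CPM in 4 ipsilateral libraries). Plin2 did not overlap there (761 to 813 CPM and 887.5 to 1141 CPM). The share of all genes without overlap within cluster 6 was not computed. The part of the makeup in the results of the class was not tested. The 13 monocyte and macrophage markers summed to 1976 to 2444 CPM contralaterally and 2015 to 5353 CPM ipsilaterally in this class, all counted, and their part in the result was not tested. At 48 h alone neither gene passed (Plin2 0.92, edgeR adjusted p = 0.152, and Abca1 1.31, edgeR adjusted p = 0.293). Plin2 lost its call without the WT ipsilateral (0.0548), Prdx1-/- contralateral (0.0687) or Prdx1-/- ipsilateral (edgeR adjusted p = 0.0797) 24 h library, and Abca1 lost it without each of these or either WT 48 h library (edgeR adjusted p = 0.0762 to 0.118).

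In T and NK-like cells 1 of 6 tested members was called, where 1.17% of 7676 genes were. Apoe stood at 106, 63.7, 272 and 236 CPM in the contralateral libraries and 44.0, 48.6, 201.5 and 109.9 CPM in the ipsilateral ones, lower ipsilaterally in 4 of 4 pairs with overlapping groups, at a log2 difference of -0.75 (SE 0.17, edgeR adjusted p = 0.0299). The microglia markers, all 12 counted, summed to 314 to 1189 CPM contralaterally and 69.0 to 277 CPM ipsilaterally in these cells, and their part in the result was not tested. The call was lost without the WT library of either side at 24 h or the Prdx1-/- library of either side at 48 h (edgeR adjusted p from 0.0818 to 0.296), at 48 h alone (0.244) and with the WT libraries alone (edgeR adjusted p = 0.371). DESeq2 did not call it (-0.75, adjusted p = 0.144), and by marker score the difference was 0.33 (edgeR adjusted p = 0.812).

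**Figure D3:**
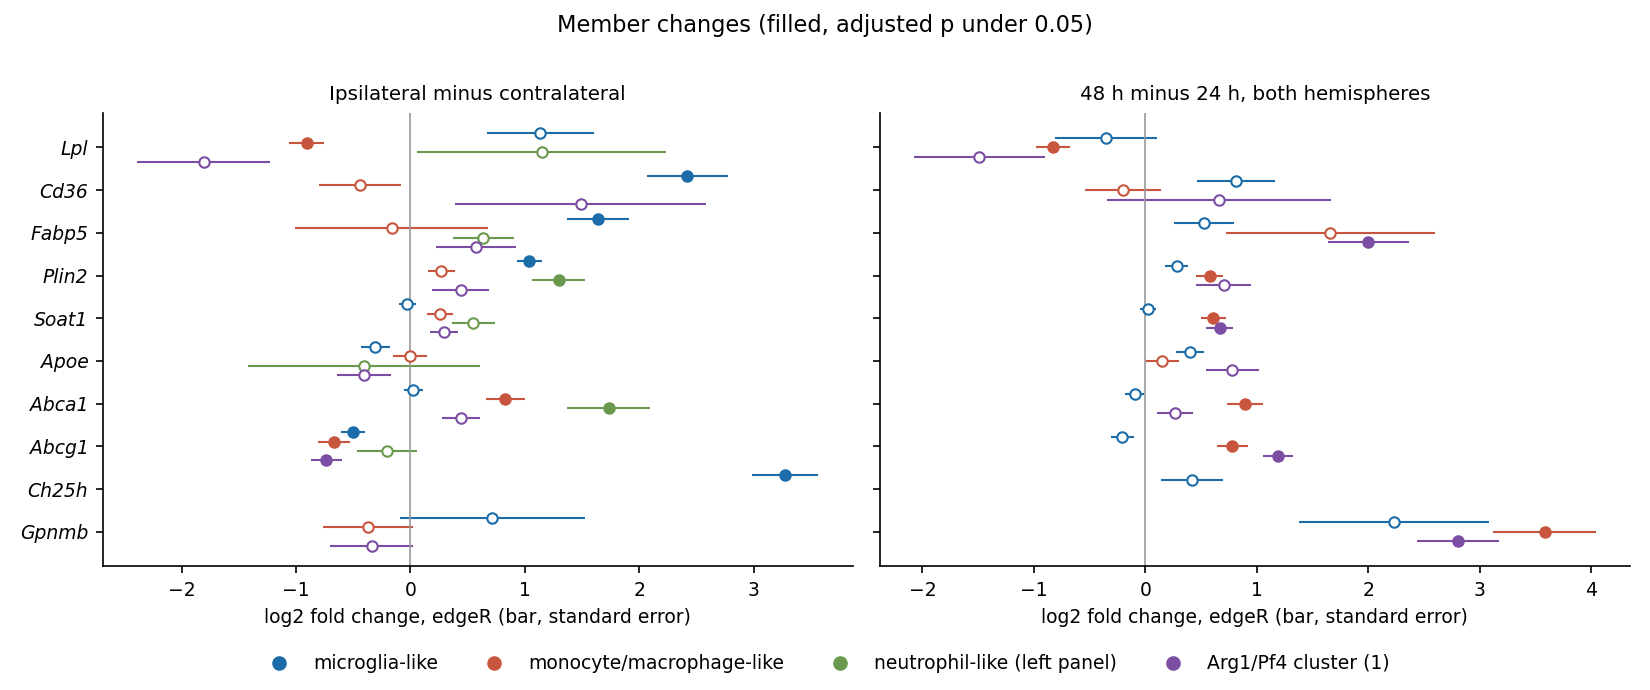
Log2 fold change of each member with its standard error (edgeR), ipsilateral minus contralateral on the left and 48 h minus 24 h on the right, in 4 and 3 cell classes; filled points have an adjusted p under 0.05. The calls on the left are spread over uptake, storage and efflux genes, and those on the right lie in monocyte/macrophage-like cells and cluster 1.

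Time after reperfusion was examined within the ipsilateral hemisphere and, as analyses added after the data were seen, within the contralateral hemisphere and over both. In microglia-like cells 1 of 10 members changed within the ipsilateral hemisphere, where 15.6% of genes were called: Lpl fell from 445 and 441 CPM at 24 h to 146 and 278 CPM at 48 h (WT, Prdx1-/-), a log2 change of -1.21 (SE 0.28, edgeR adjusted p = 0.0495). That call was lost in 10 of 15 alternatives, among them without each of the 4 libraries of 24 h or without the WT ipsilateral 48 h library, with edgeR adjusted p from 0.0530 to 0.993 over the 10. Over both hemispheres 0 of 10 members passed in edgeR, where 15.5% of genes were called; 3 had an unadjusted p under 0.05, and DESeq2 called 3. Within the contralateral hemisphere 2 of 10 rose, where 6.19% of genes were called. Ch25h rose by 1.16 (SE 0.14, edgeR adjusted p = 0.000974), a call kept in all 14 alternatives run. Cd36 rose from 0.535 and 0.950 CPM to 2.83 and 2.11 CPM, by 1.68 (SE 0.33, edgeR adjusted p = 0.0152). Cd36 lost its call without the WT contralateral library of 24 h (edgeR adjusted p = 0.0945) or 48 h (0.144) and by marker score (edgeR adjusted p = 0.190). The difference between hemispheres changed with time for 1 member, Ch25h, where 0.0759% of genes were called. Its contralateral level was 3.65 and 2.18 CPM at 24 h and 7.56 and 5.30 CPM at 48 h (WT, Prdx1-/-), and its ipsilateral level 50.3 and 28.8 CPM and then 40.3 and 34.0 CPM. The interaction was -1.29 (SE 0.18, edgeR adjusted p = 0.0482), and leaving out any 1 library other than the pair labelled Prdx1-/- at 24 h lost it (edgeR adjusted p from 0.0733 to 0.307).

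In monocyte/macrophage-like cells 6 of 9 tested members changed over time: over both hemispheres 5 rose and 1 fell, where 6.4% of 9944 genes were called, and their median was 0.61 beside 0.01 over all genes. Sets of 4 values over time are contralateral WT, contralateral Prdx1-/-, ipsilateral WT and ipsilateral Prdx1-/-. Gpnmb stood at 1.40, 4.58, 4.23 and 4.96 CPM at 24 h and 104, 47.6, 92.9 and 24.2 CPM at 48 h. All 48 h libraries were above all 24 h ones, although the 24 h values rest on 1 to 32 UMIs and the 48 h values on 181 to 1221, and the log2 change was 3.58 (SE 0.46, edgeR adjusted p = 0.0113). Abca1 stood at 30.8, 35.1, 87.9 and 67.8 CPM at 24 h and 91.5, 77.8, 143 and 106 CPM at 48 h, a change of 0.89 (SE 0.17, edgeR adjusted p = 0.0107) with overlap between the ipsilateral 24 h and contralateral 48 h libraries. Abcg1 stood at 54.6, 47.3, 22.7 and 22.6 CPM at 24 h and 60.6, 68.6, 50.7 and 41.8 CPM at 48 h, a change of 0.78 (SE 0.14, edgeR adjusted p = 0.00768), with the ipsilateral libraries the lowest at each time. Of the storage genes, Soat1 rose by 0.61 (SE 0.11, edgeR adjusted p = 0.00891), from 96.2 to 149.9 CPM at 24 h to 171 to 215 CPM at 48 h, and Plin2 by 0.58 (SE 0.12, edgeR adjusted p = 0.0142), from 519 to 731 CPM to 849 to 1145 CPM. Neither overlapped between times, and nor did Gpnmb, where 11.9% of all genes tested did not overlap. Lpl fell from 28.5 to 125 CPM at 24 h to 19.1 to 42.6 CPM at 48 h, overlapping ranges with a log2 change of -0.83 (SE 0.15, edgeR adjusted p = 0.00843). Fabp5, Apoe and Cd36 did not pass, with log2 changes of 1.66 (SE 0.94, edgeR adjusted p = 0.403), 0.15 (SE 0.15, edgeR adjusted p = 0.601) and -0.20 (SE 0.34, edgeR adjusted p = 0.803).

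Within the ipsilateral libraries alone 2 of these 9 passed, where 1.84% of genes were called: Abca1 with a log2 change of 0.62 (SE 0.14, edgeR adjusted p = 0.0488) and Abcg1 with one of 0.97 (SE 0.15, edgeR adjusted p = 0.0157). Both calls were lost when the WT 24 h, Prdx1-/- 24 h or WT 48 h ipsilateral library was left out, with edgeR adjusted p from 0.127 to 0.438, and Abca1 also without the WT (0.136) or Prdx1-/- (edgeR adjusted p = 0.129) contralateral 48 h library. Within the contralateral libraries 3 of 9 passed, where 3.38% of genes were called. Abca1 and Plin2 rose by 1.49 (SE 0.20, edgeR adjusted p = 0.00461) and 0.76 (SE 0.14, edgeR adjusted p = 0.0177). Lpl fell by 1.10 (SE 0.22, edgeR adjusted p = 0.0241). All 3 calls were lost without the Prdx1-/- contralateral 48 h library (edgeR adjusted p = 0.0657, 0.237 and 0.308), and those of Plin2 (0.103) and Lpl (edgeR adjusted p = 0.0709) without the WT one. Lpl also lost it without any of the other 24 h libraries than the WT contralateral one (edgeR adjusted p from 0.0594 to 0.149). Over both hemispheres, leaving out the WT ipsilateral 24 h library lost Plin2, Abcg1 and Soat1 (edgeR adjusted p = 0.0642, 0.0540 and 0.0530). Leaving out the WT ipsilateral 48 h library lost Plin2 and Abcg1 (0.0682 and 0.0617), the Prdx1-/- contralateral 48 h library Plin2 and Soat1 (0.101 and 0.0584), and the Prdx1-/- ipsilateral 24 h library Abcg1 (edgeR adjusted p = 0.0518). Gpnmb kept its call in all 14 alternatives run.

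The class changed in makeup over the same interval. Cluster 16, led by the interferon response genes Rsad2, Isg15 and Ifit3, made up 4.78% of monocyte/macrophage-like cells at 24 h (41 cells) and 27.3% at 48 h (519 cells), and the rest was cluster 7, led by Vcan, Plac8 and Chil3. Within cluster 7, Gpnmb was 1.18 to 3.57 CPM at 24 h and 17.4 to 25.0 CPM at 48 h and Soat1 97.5 to 152 CPM and 172 to 212 CPM, without overlap. Abcg1, in contrast, overlapped within cluster 7, at 17.2 to 57.1 CPM and 23.6 to 39.2 CPM, and stood at 89.8 to 123 CPM in cluster 16 at 48 h. Abca1 within cluster 7 was 28.7 to 85.3 CPM and 54.1 to 118 CPM, and Plin2 520 to 724 CPM and 712.5 to 856 CPM, both with overlap, while cluster 16 held 113 to 194 CPM of Abca1 and 1240 to 1751 CPM of Plin2. The part of this shift in the changes of the class was not tested. For cluster 7, the share of all genes without overlap between times was not computed. The neutrophil markers in the class summed to 3358 to 15741 CPM at 24 h and 1310 to 7998 CPM at 48 h, all 12 counted, and their part in the result was not tested.

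In cluster 1, a single cluster, 4 of 9 members rose over time and 0 fell, where 6.06% of 9469 genes were called, with a median of 0.70 beside 0.01 over all genes. Gpnmb stood at 39.4, 7.52, 47.7 and 15.5 CPM at 24 h and 342, 199.8, 218 and 97.2 CPM at 48 h, a change of 2.81 (SE 0.37, edgeR adjusted p = 0.0108). Abcg1 stood at 39.4, 36.0, 29.1 and 15.9 CPM at 24 h and 91.7, 90.6, 62.4 and 48.8 CPM at 48 h, a change of 1.19 (SE 0.14, edgeR adjusted p = 0.000587). Soat1 stood at 112, 99.4, 144 and 136.5 CPM at 24 h and 207, 205, 229 and 211 CPM at 48 h, a change of 0.67 (SE 0.12, edgeR adjusted p = 0.00725). For these 3 genes all 48 h libraries were above all 24 h ones, in 4 of 4 pairs, and each call held in all 13 alternatives run. Of all genes tested in cluster 1, 14.2% did not overlap between times. Fabp5 stood at 361, 170.3, 449.9 and 463.5 CPM at 24 h and 2347, 920.4, 2682 and 901 CPM at 48 h, highest in the 2 WT libraries of 48 h, a change of 2.0012 (SE 0.36, edgeR adjusted p = 0.0339). That call was lost without the WT contralateral (edgeR adjusted p = 0.0899), WT ipsilateral (0.0793) or Prdx1-/- contralateral (0.113) library of 24 h, or the WT ipsilateral (0.1499) or Prdx1-/- contralateral (0.0791) library of 48 h. Plin2 was also above its 24 h range in every 48 h library, at 992, 461, 954 and 1204 CPM at 24 h and 1568, 1416, 1725 and 1598 CPM at 48 h, but its change of 0.70 (SE 0.25, edgeR adjusted p = 0.1499) did not pass. Apoe stood at 9664, 14985, 7947 and 5275 CPM at 24 h and 17120, 16414, 20488 and 13613 CPM at 48 h, a change of 0.78 (SE 0.24, edgeR adjusted p = 0.105) that did not pass either, and the changes of Abca1, Cd36 and Lpl were 0.27 (SE 0.16, edgeR adjusted p = 0.372), 0.66 (SE 1.0033, edgeR adjusted p = 0.805) and -1.49 (SE 0.58, edgeR adjusted p = 0.235). The neutrophil markers, all 12 counted, summed to 579 to 3056 CPM at 24 h and 377 to 1921 CPM at 48 h, and the microglia markers to 215 to 1292 CPM and 386 to 1347 CPM, ranges that overlapped. Within the contralateral libraries of cluster 1, 3 of 9 members rose, where 1.61% of genes were called. They were Gpnmb, by 3.80 (SE 0.32, edgeR adjusted p = 0.00171), Abcg1 by 1.18 (SE 0.21, edgeR adjusted p = 0.0207) and Soat1 by 0.90 (SE 0.14, edgeR adjusted p = 0.0121). Gpnmb kept its call in all 13 alternatives run. Abcg1 lost it without the Prdx1-/- contralateral library of 24 h (edgeR adjusted p = 0.0694) or 48 h (0.261). Soat1 lost it without either of these (0.0605 and 0.1996) or the WT contralateral 48 h library (edgeR adjusted p = 0.124).

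In T and NK-like cells 1 of 6 tested members changed over time on both sides, where 0.0521% of 7676 genes were called. Apoe stood at 106, 63.7, 44.0 and 48.6 CPM at 24 h and 272, 236, 201.5 and 109.9 CPM at 48 h, a rise of 1.58 (SE 0.17, edgeR adjusted p = 0.000231). All 48 h libraries were above all 24 h ones, where 3.35% of all genes tested did not overlap between times. The call was lost with doublets kept (0.50, edgeR adjusted p = 0.977) and by marker score (1.06, edgeR adjusted p = 0.740). The border macrophage markers, of which 7 of 10 were counted at each time, summed to 3.98 to 21.2 CPM at 24 h and 23.6 to 69.8 CPM at 48 h in these cells, without overlap (Folr2 and Cd209f at 0). The 12 microglia markers summed to 190 to 777 CPM and 69.0 to 1189 CPM. Their part in the result was not tested.

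**Figure D4:**
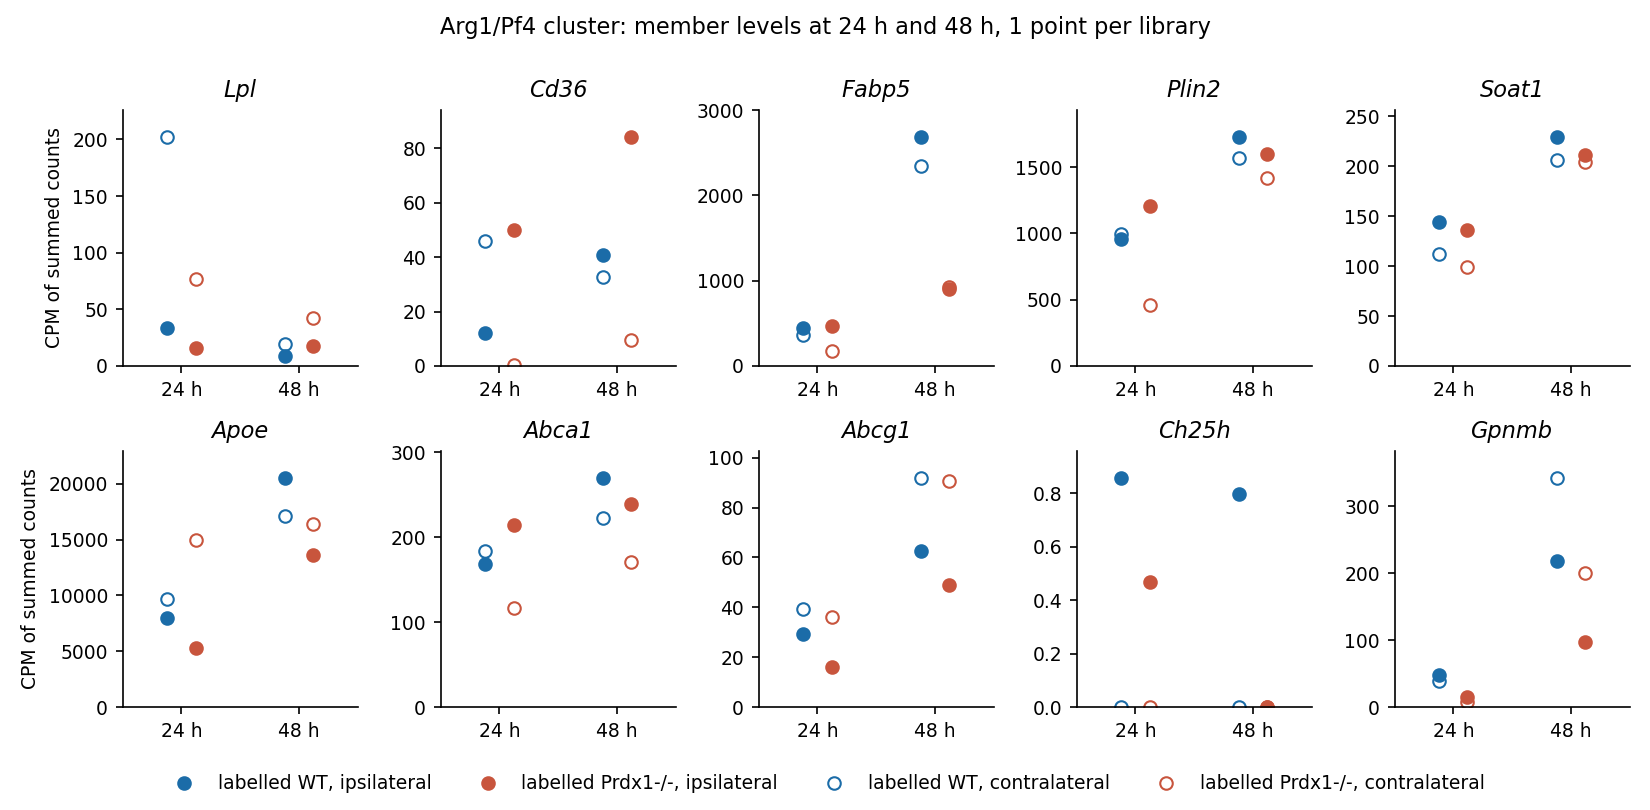
Level of each member in cluster 1, led by Arg1 and Pf4, in CPM of summed counts at 24 h and 48 h; each point is 1 library, coloured by labelled genotype, filled for ipsilateral and open for contralateral. Gpnmb, Abcg1, Soat1, Fabp5 and Plin2 are higher in every 48 h library than in any 24 h one, and Ch25h stays under 1 CPM. Of all genes tested, 14.2% did not overlap between times.

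By genotype label over all libraries, 0 of 10 members passed edgeR in microglia-like cells, where 0.448% of genes were called; 2 had an unadjusted p under 0.05 (Apoe and Fabp5), and DESeq2 called 2. Apoe had a log2 difference of 0.58 (SE 0.13, edgeR adjusted p = 0.0739), higher under the label Prdx1-/- in 4 of 4 pairs, and Fabp5 one of 0.90 (SE 0.27, edgeR adjusted p = 0.243), also in 4 of 4. At 48 h, where Prdx1 matched the labels, Apoe was the 1 of 10 members called, beside 0.986% of genes. It stood at 1828 (WT) and 4131 CPM (Prdx1-/-) contralaterally and at 1692 and 2583 CPM ipsilaterally, a difference of 0.82 (SE 0.14, edgeR adjusted p = 0.03). The contralateral pair had the wider gap, and the call was lost without the WT (edgeR adjusted p = 0.0716) or Prdx1-/- (0.301) contralateral 48 h library or the Prdx1-/- ipsilateral 48 h library (edgeR adjusted p = 0.0584).

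In monocyte/macrophage-like cells 0 of 9 members passed by label over all libraries in edgeR, where 0.0101% of genes were called, 2 had an unadjusted p under 0.05 (Lpl and Gpnmb) and DESeq2 called 0. At 48 h, in a contrast added after the data were seen, Gpnmb was lower under the label Prdx1-/- as the 1 of 9 called, beside 0.121% of genes. It stood at 104 and 92.9 CPM in the WT libraries and 47.6 and 24.2 CPM in the Prdx1-/- libraries (contralateral, ipsilateral), a difference of -1.63 (SE 0.23, edgeR adjusted p = 0.0385). The call was lost without the WT (edgeR adjusted p = 0.635) or Prdx1-/- (0.516) ipsilateral 48 h library or without the contralateral (0.0832) or ipsilateral (edgeR adjusted p = 0.0820) library labelled Prdx1-/- at 24 h. Cluster 16 was 40.6% of the class in the WT and 33.6% in the Prdx1-/- contralateral 48 h library, and 31.5% and 15.9% in the ipsilateral ones. Within cluster 16 Gpnmb was 224 and 243.5 CPM in the WT and 89.5 and 57.5 CPM in the Prdx1-/- libraries of 48 h (contralateral, ipsilateral), and within cluster 7 18.7 and 21.0 CPM beside 25.0 and 17.4 CPM. The part of the makeup in the difference was not tested. In cluster 1, where 0 of 9 members passed over all libraries (0.0211% of genes were called by edgeR, 3 members had an unadjusted p under 0.05), Gpnmb at 48 h stood at 342 and 218 CPM in the WT libraries and 199.8 and 97.2 CPM in the Prdx1-/- ones. Its difference at 48 h was -0.99 (SE 0.43, edgeR adjusted p = 1), and that of Fabp5, at 2347 and 2682 CPM beside 920 and 901 CPM, was -1.50 (SE 0.38, edgeR adjusted p = 0.732). Neither passed. With 1 library per cell of the design, genotype at 48 h cannot be told apart from the animals that made up each library.

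Across the classes with enough cells, different members were highest in different classes, given here as ranges over libraries with no test. On the contralateral side border macrophage-like cells were highest for Apoe (24576 to 35019 CPM), Cd36 (77.2 to 144 CPM) and Ch25h (10.7 to 48.2 CPM), each without overlap with the next class. Microglia-like cells were highest there for Abcg1 (112 to 138 CPM, no overlap), Abca1 (213 to 242 CPM, overlapping cluster 1) and Lpl (104.5 to 186 CPM, overlapping border macrophage-like cells). Ipsilaterally, Apoe was highest in cluster 1 (5275 to 20488 CPM) and monocyte/macrophage-like cells (6392 to 7910 CPM), which overlapped each other and not microglia-like cells (1362 to 2583 CPM). Plin2 followed the order cluster 9 (1879 to 2795 CPM), cluster 1 (954 to 1725 CPM), neutrophil-like (562 to 973 CPM), monocyte/macrophage-like (715 to 1145 CPM) and, further down, microglia-like cells (184 to 295 CPM), and among the first 4 the range did not overlap the next one after cluster 9 and after monocyte/macrophage-like cells. Ch25h was found at 28.8 to 50.3 CPM in ipsilateral microglia-like cells and 15.8 to 47.2 CPM in cluster 9, above every other class with at least 3 ipsilateral libraries of enough cells. Border macrophage-like cells, with 2 such libraries of 20 and 25 cells, held 119 and 118 CPM. Fabp5 was highest by median in oligodendrocyte-like cells (413 to 811 CPM in 3 libraries of 22, 28 and 22 cells). That range overlapped cluster 1, the next class (450 to 2682 CPM). Soat1 overlapped between cluster 1, monocyte/macrophage-like cells, cluster 9 and cluster 12, a cluster led by MHC class II genes, from 98.98 to 229 CPM.

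**Figure D5:**
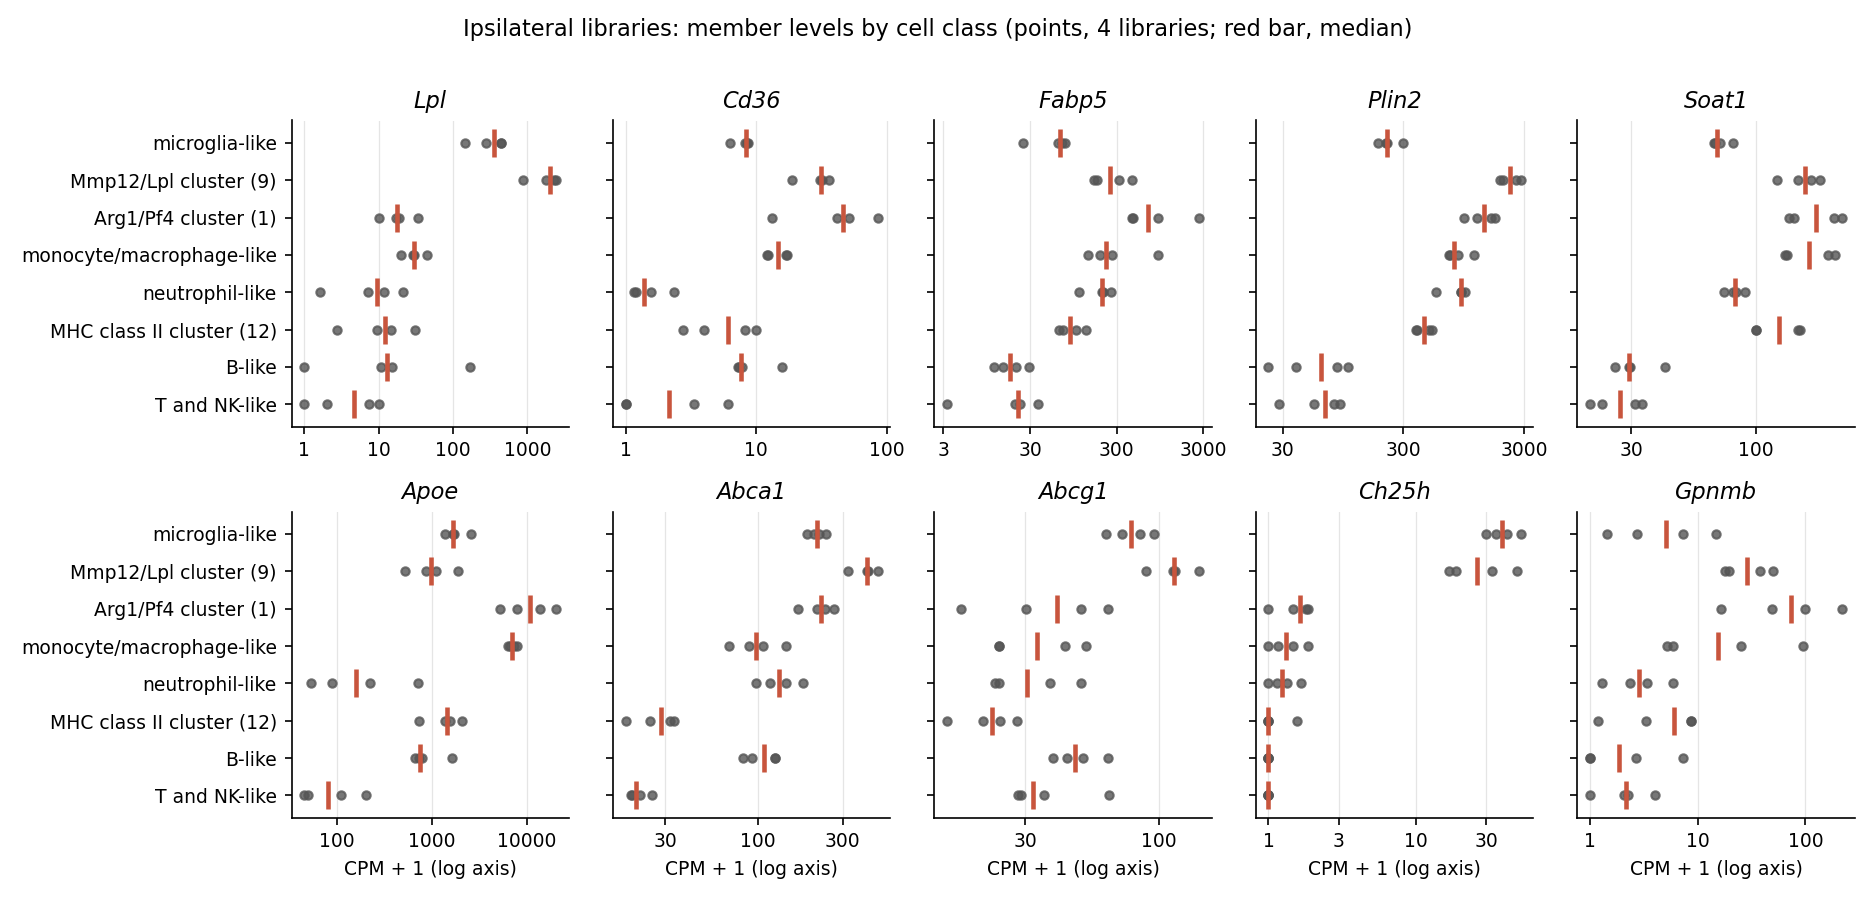
Level of each member in the ipsilateral libraries by cell class, as CPM plus 1 on a log axis; points are the libraries with at least 20 cells of the class (3 or 4) and the red bar is their median. Plin2, Lpl and Abca1 are highest in cluster 9, Apoe in cluster 1 and monocyte/macrophage-like cells, and Ch25h is seen in microglia-like cells and cluster 9.

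Single cells thinned to 5000 UMIs held a median of 3 members in microglia-like cells of every library, 4 to 5 in cluster 9 and 1 in T and NK-like cells. In microglia-like cells, 34.7% to 52.5% of those with an Lpl UMI also had a Plin2 UMI, beside 25.2% to 49.3% of those without. The share was higher with Lpl in 7 of 8 libraries, the exception being the Prdx1-/- ipsilateral 48 h library (47.4% and 49.3%). Before thinning, cells with an Lpl UMI were deeper in every library (medians of 12866 and 9020 UMIs in the WT ipsilateral 24 h library). Both genes also differed in level between clusters of the class. The part of depth and clusters in these shares was not tested. As a description over 88 sums of 15 classes, which share libraries and depth, the 2 genes closest to each member among 5895 were Pkm and Ninj1 for Plin2 (Pearson r = 0.896 and 0.893 of log2 CPM plus 1), Ftl1 and Ninj1 for Soat1 (0.875 and 0.834), Fcgr2b and Sash1 for Apoe (0.847 and 0.825), C3ar1 and Atf3 for Lpl (0.783 and 0.771), and Rab7 and Cstb for Fabp5 (0.773 and 0.762). They were C3ar1 and Lpin2 for Abca1 (0.768 and 0.767), Rcan1 and Klf6 for Ch25h (0.765 and 0.748), Rassf2 and Cd84 for Abcg1 (0.748 and 0.734), Bri3 and Vps26a for Gpnmb (0.736 and 0.703), and Sdc4 and Blvrb for Cd36 (0.694 and 0.687).

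The other genes of lipid handling, 69 in 7 lists chosen with earlier results of these data known, put the members in context. In microglia-like cells 59 were tested between hemispheres, of which 13 rose and 13 fell, close to the 43.3% of all genes called, and their median was 0.03. Of 9 droplet genes tested 2 rose and 1 fell: Hilpda, a droplet protein induced by low oxygen, rose by 1.45 (SE 0.12, edgeR adjusted p = 5.03e-05), the triglyceride synthase Dgat2 by 1.49 (SE 0.24, edgeR adjusted p = 0.000901), and the phosphatidate phosphatase Lpin1 fell by 1.16. Of 7 lipolysis genes 2 rose and 4 fell, among them the monoglyceride lipase Mgll (-0.72), the hormone sensitive lipase Lipe (-0.40) and the lysosomal acid lipase Lipa (-0.27). Of 11 uptake genes 4 rose and 3 fell, with Angptl4, an inhibitor of Lpl, at 1.17 and the lipid receptor Trem2 at -0.52. Of 4 fatty acid binding genes 3 rose (Dbi 0.59, Fabp3 0.68 and Fabp7 1.38). Of 9 sterol transport genes none rose and 2 fell, Cyp27a1 (-1.09), which makes 27-hydroxycholesterol, and the lysosomal cholesterol exporter Npc1 (-0.41). Of 7 nuclear receptors and regulators none rose and 2 fell (Mitf -0.41, Tfeb -0.32), and of 12 fatty acid oxidation genes 2 rose (Acadl 0.52, Hadha 0.31) and 1 fell (Acsl1 -0.45). The calls cited here had edgeR adjusted p of at most 0.0327.

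In monocyte/macrophage-like cells 2 of 59 rose (among them the triglyceride synthase Dgat1, 0.86) and 2 fell (Trem2 -0.52, Fabp4 -0.91) between hemispheres, where 5.41% of all genes were called, and in neutrophil-like cells 3 of 49 rose (Dgat2 0.93, Lpin2 0.84, Tfe3 0.91) and 1 fell (Trem2 -2.68), where 3.84% were. Over time, cluster 1 had 12 of 59 higher and 3 lower, where 6.06% of all genes were called. Those that rose included Npc1 (1.003, SE 0.11, edgeR adjusted p = 0.000533), the phospholipid transfer protein Pltp (1.83), the fatty acid transporter Slc27a1 (1.41), Lipa (0.95) and Nceh1 (1.37), which free cholesterol from its esters, Fabp3 (2.39), Cpt1a, which admits fatty acids to mitochondria (0.87), and Mylip (0.81). Among those that fell was Acsl4, by 0.60. Monocyte/macrophage-like cells had 5 of 59 higher over time, among them Npc1 (1.02, SE 0.14, edgeR adjusted p = 0.00251), Nceh1 (1.55) and Fabp3 (2.73), and 2 lower (Scarb1 -0.77, Acadvl -0.54), where 6.4% of all genes were called. The calls cited here for these 3 classes had edgeR adjusted p of at most 0.0454.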

How the data were processed

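Raw UMI counts per gene and cell were used as deposited; Cell Ranger, Seurat and the build mm10 are named per the submitters' processing notes, without versions or roles, and genes and cells had been filtered before deposit. Cells with under 200 genes or over 10% mitochondrial counts were left out, and then the cells with the highest Scrublet doublet scores (1583 cells, a share that grew with library size). Clusters (scanpy 1.11.5, 2000 variable genes without Prdx1 and lipid genes, 30 components, 15 neighbours, Leiden resolution 1.0) were named from fixed markers. Counts were summed per library and class (at least 20 cells) and tested with edgeR 4.0.16 (quasi-likelihood, TMM, filterByExpr, additive in hemisphere, genotype label and time, with 4 residual degrees of freedom; contrasts within a time or side used 3). P-values were adjusted over all genes tested (Benjamini-Hochberg, 0.05) and the scripts were tested on simulated data. Depth was 39433266 to 70111421 UMIs per library; the limit from a count of 0 covers counting error only, and intervals of log2 differences come from the edgeR fit. Alternatives were DESeq2 1.42.0, its size factors, no low-count filter, stricter cells (500 genes, 5%), doublets kept, other class rules, a hemisphere block and left-out libraries. All 10 members are named, and of each other lipid list up to 3 genes past the threshold with the smallest p were named, except 1 gene that is not reported here. Members, lists and tests were chosen with earlier results of these data known.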

Additional observations from a re-analysis of the deposited data

Results flagged for a closer look

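The hemisphere difference of Ch25h in microglia-like cells differed between times: the interaction (48 h minus 24 h, ipsilateral minus contralateral) was -1.29 on the log2 scale (SE 0.18, edgeR adjusted p = 0.0482 over 13183 genes). It was kept in 4 of 14 alternatives and lost in 10, with estimates from -1.47 to -1.09.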

How the results depend on the processing

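Of 2609 values of single members under an alternative, 2382 kept their direction and side of the threshold, 127 lost a call, 97 gained one and 3 reversed; 190 sign changes in which neither value was called are counted with the first. The reversed values were Soat1 between hemispheres in microglia-like cells by marker score (0.24) and, in T and NK-like cells, Plin2 with doublets kept (1.36) and Apoe by marker score (0.33). The causes were not tested. Members called higher and lower between hemispheres in microglia-like cells numbered 7 and 2 by marker score and 1 and 0 in clusters led by a microglia marker, and 2 were lower with DESeq2 and with the hemisphere pair as a block. In monocyte/macrophage-like cells 0 were higher and 0 lower by marker score, and 1 was lower with stricter cells and with doublets kept. In neutrophil-like cells 5 were higher with no low-count filter, 1 with doublets kept, and 0 by marker score and at 48 h alone. In cluster 1 they numbered 4 and 3 with no filter and 1 and 3 at 48 h alone, with 2 lower under the block and 0 with WT libraries alone. Over ipsilateral time in microglia-like cells 1 was higher with DESeq2 and by marker score, and 0 were lower with DESeq2 size factors, no filter, stricter cells, marker score and leading-marker clusters. In monocyte/macrophage-like cells 5 were higher and 1 lower with no filter, and 1 higher with stricter cells, doublets kept and marker score. Over time on both sides, cluster 1 had 7 higher and 1 lower with no filter, monocyte/macrophage-like cells 1 higher by marker score and 0 lower there and with stricter cells, and microglia-like cells 1 higher with size factors or stricter cells, 2 by marker score and 3 with DESeq2. Over contralateral time microglia-like cells had 1 higher by marker score, and monocyte/macrophage-like cells 4 higher with DESeq2, 6 with no filter and 1 by marker score, with 0 lower with stricter cells, doublets kept and marker score. In T and NK-like cells 1 was higher between hemispheres with doublets kept, 0 were lower there, with DESeq2, by marker score, at 48 h alone and with WT libraries alone, and 0 were higher over time with doublets kept and by marker score; stricter cells left too few of them to fit. The interaction had 2 lower with DESeq2 and 0 with size factors, stricter cells, doublets kept and marker score. By genotype label microglia-like cells had 2 higher with DESeq2 and 1 with no filter, and at 48 h 2 with DESeq2 and 0 with stricter cells and marker score. At 48 h monocyte/macrophage-like cells had 0 lower with DESeq2 and marker score, and cluster 1 had 1 lower with DESeq2.

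Leaving out 1 library at a time gave, between hemispheres, 4 to 5 higher and 1 to 2 lower members in microglia-like cells, 0 to 1 and 1 to 2 in monocyte/macrophage-like cells, 0 to 3 higher in neutrophil-like cells and 0 to 1 lower in cluster 1. It gave 0 to 1 higher and 0 to 2 lower over ipsilateral time in microglia-like cells and 0 to 3 and 0 to 1 in monocyte/macrophage-like cells. Over time on both sides it gave 3 to 5 higher in cluster 1, 2 to 5 higher and 1 lower in monocyte/macrophage-like cells and 0 to 2 higher in microglia-like cells. Over contralateral time it gave 1 to 2 higher in microglia-like cells, 0 to 4 higher and 0 to 1 lower in monocyte/macrophage-like cells and 1 to 4 higher in cluster 1, and in T and NK-like cells 0 to 1 lower between hemispheres and 1 higher over time. It gave 0 to 2 lower for the interaction, 0 to 1 higher by genotype label and 0 to 2 at 48 h in microglia-like cells, and at 48 h 0 to 2 lower in monocyte/macrophage-like cells and 0 to 1 in cluster 1. Counts of all genes moved more: between hemispheres in microglia-like cells 2912 rose and 2792 fell, with 62 to 3067 and 10 to 3057 over the alternatives, and in neutrophil-like cells 221 and 117, with 1 to 711 and 9 to 594. The hemisphere block gained the calls of Apoe in microglia-like cells and Lpl in cluster 1 and changed no other. No paired analysis by replicate number was possible because each group is 1 library. Cd36 and Gpnmb in microglia-like cells rest on few UMIs, which limits their precision. So do Gpnmb at 24 h in monocyte/macrophage-like cells and Cd36 and Ch25h in most other classes.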

Other observations

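Cluster 18, the microglia-like cluster led by interferon response genes (Ifit3, Ifit2 and Rsad2), held 63 ipsilateral cells in the 2 libraries with enough of them and 260 contralateral cells in 4. There Lpl was 72.8 to 171 CPM contralaterally and 967 to 1352 CPM ipsilaterally, and Plin2 81.3 to 154 CPM and 527 to 1285 CPM. Cd36 was 0 to 7.39 CPM and 31.8 to 45.4 CPM, and Ch25h 0 to 67.2 CPM and 105 to 109 CPM. The ranges of these 4 genes did not overlap, while those of Abca1 did (196 to 339 CPM and 195.5 to 314 CPM). Only 2 ipsilateral libraries were compared, and the share of all genes without overlap in this cluster was not computed. These values were picked after they were seen and have no test.

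Cluster 14, led by the cell cycle genes Mki67 and Top2a, also had more ipsilateral Ch25h. It was 14.97 to 24.7 CPM in 2 contralateral and 41.5 to 87.7 CPM in 3 ipsilateral libraries. Plin2 overlapped there (201.5 to 238 CPM and 138 to 340 CPM). The share of all genes without overlap was not computed for this cluster either.

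In border macrophage-like cells, Cd36 was 77.2 to 144 CPM in the 4 contralateral libraries and 235 and 752 CPM in the WT and Prdx1-/- ipsilateral libraries of 24 h, which held 20 and 25 such cells. Ch25h was 10.7 to 48.2 CPM contralaterally and 119 and 118 CPM in those 2 libraries. The ipsilateral libraries of 48 h held 3 and 11 such cells and gave no value.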
